A study of Mus musculus with 6 samples.

Results

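The genes of cholesterol and fatty acid synthesis are described here across NMuMG cells given transforming growth factor β1 (TGFβ) or vehicle. The 36 genes were taken by their symbols from a table of read counts of 21240 genes, and comprise 18 enzymes of the sterol branch, 12 enzymes of the fatty acid branch, and 6 regulators or transporters of sterol (Srebf1, Srebf2, Scap, Insig1, Insig2 and Stard4). NMuMG is a cell line grown from normal mouse mammary gland epithelium, and the study asked how TGFβ changes transcription in it. RNA was sequenced from 6 libraries in 3 groups of 2 biological replicates. Cells of all 3 groups were first kept for 6 h in medium without serum and without the insulin that is otherwise added to it. The vehicle group then received the HCl and albumin solution for 2 h, the TGFβ 2 h group received 5 ng/ml TGFβ1 for 2 h, and the TGFβ 12 h group received the same dose for 12 h. Vehicle cells were collected at 2 h only, so the 12 h group had spent 18 h without serum and insulin and the other groups 8 h, and the effect of TGFβ at 12 h cannot be told apart from that of the longer time in this medium.

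Cells build cholesterol from acetyl-CoA through mevalonate, farnesyl diphosphate, squalene and lanosterol, and they build fatty acids from acetyl-CoA through malonyl-CoA and palmitate, which is then elongated and desaturated. Genes of both branches are known targets of the SREBP transcription factors, encoded by Srebf1 and Srebf2, which are carried from the endoplasmic reticulum by SCAP when sterol is scarce and are held there by INSIG proteins when it is plentiful. Mammary epithelium is known for making milk fat in lactation, when these enzymes are abundant.

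After 12 h of TGFβ, the enzymes of both branches were lower together. Of the 35 genes with enough reads to test, 29 were lower than with vehicle and 1, Scap, was higher, while at 2 h none was called lower and Srebf1 and Srebf2 were called higher. Over all genes tested, 21.5% were called lower and 21.8% higher at 12 h, and 5.25% lower and 9.91% higher at 2 h. The largest falls at 12 h were those of Elovl6, which elongates palmitate (log2FC −2.65 ± 0.21, 6.26-fold lower), Acss2, which makes acetyl-CoA from acetate (−2.46 ± 0.30, 5.51-fold), and Lss, which closes the rings of lanosterol (−2.41 ± 0.21, 5.33-fold). The log2FC is the base 2 logarithm of the ratio to vehicle. Its standard error, given here after ±, was derived from the edgeR fit with 2 libraries a group. It is the absolute log2FC divided by the square root of the F statistic of the test. A gene was called at an adjusted p under 0.05 in the quasi-likelihood test of edgeR, adjusted by Benjamini-Hochberg over all 11080 genes tested, and robustly regulated if its log2FC also lay beyond 1 in either direction. The test pools the spread between the 2 libraries of a group over all 3 groups, and draws on all genes tested to estimate it. It covers no spread beyond that between these libraries.

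**Figure D1:**
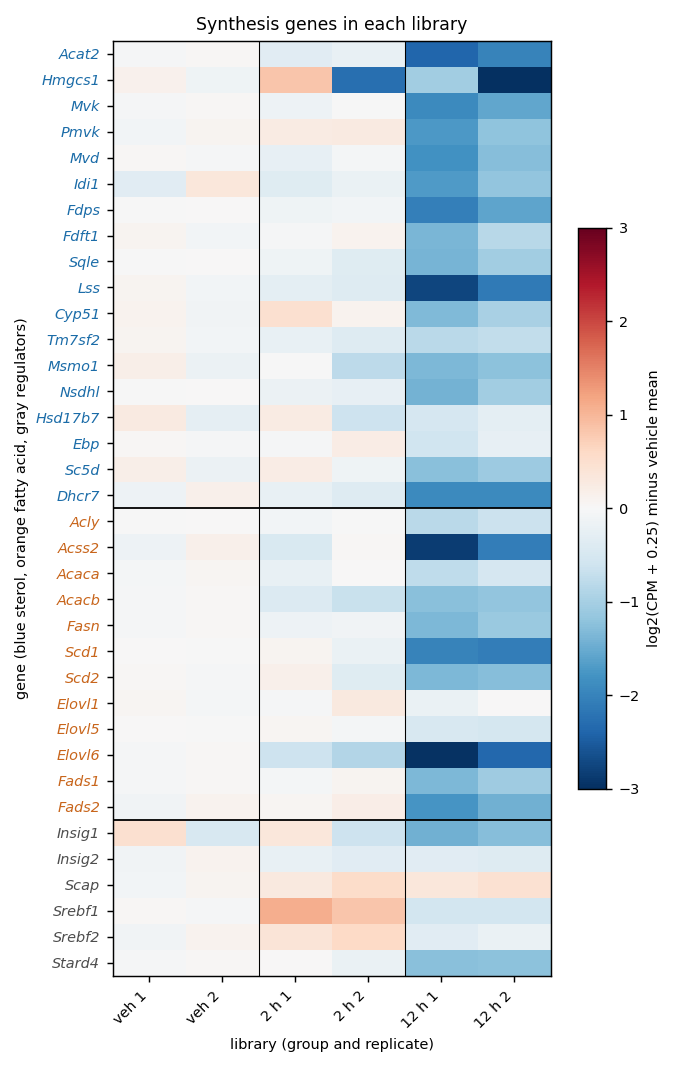
Heat map of the 36 genes (vertical axis, in pathway order, with lines between the sterol branch, the fatty acid branch and the regulators) in the 6 libraries (horizontal axis), colored by log2(CPM + 0.25) minus the vehicle mean, with colors limited to 3 in either direction. The 12 h columns are blue for most enzymes, Srebf1 is red at 2 h, and Hmgcs1 differs between the 2 replicates of each treated group.

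As a description, the promoters of these genes were searched for 3 short motifs on both strands. The motifs were CCAAT (the NF-Y box), CACGTG (an E-box, the same on both strands and counted once) and TCACNCCAC (a form of the sterol regulatory element). Promoter windows of 300 bases, from 250 before to 50 after the start of transcription, were taken from RefSeq on GRCm38.p6, and 29 of the 36 genes matched, with 38 windows. Fdps, Fdft1, Sqle, Stard4, Scd1, Scd2 and Fads1 had no entry. CCAAT stood in 65.8% of the windows against 37.4% of all 32851 promoter windows and 38.1% of those of the genes tested. By gene, it was in 14 of 15 of the sterol branch, 6 of 9 of the fatty acid branch and 4 of 5 regulators, against 41.1% of all genes with a window and 43.6% of the genes tested. CACGTG was in 18.4% of the windows of these genes (7 windows of 6 genes, with 1 site of Scap in 2 overlapping windows), 7.15% of all windows and 10.1% of those of the genes tested. By gene, it was in 20.7%, against 8.09% of all genes with a window and 12.0% of the genes tested. TCACNCCAC was in 1 window, that of Hmgcs1, and in 1.24% of all windows. These counts are a description of letters and say nothing of binding. The promoters of 5 genes are shown, 5′ to 3′ on the strand of the gene, with the matched motifs in capitals. Hmgcs1 (chr13:119690101-119690400, plus strand) was the only one to hold TCACNCCAC, Mvk (chr5:114444019-114444318, plus strand) held the most CCAAT matches, at 5, Lss (chr10:76531355-76531654, plus strand) had the largest fall of the sterol branch, Fasn (chr11:120824498-120824797, minus strand) encodes the synthase of palmitate, and Elovl6 (chr3:129532136-129532435, plus strand) had the largest fall of all with no match in this window.
Hmgcs1: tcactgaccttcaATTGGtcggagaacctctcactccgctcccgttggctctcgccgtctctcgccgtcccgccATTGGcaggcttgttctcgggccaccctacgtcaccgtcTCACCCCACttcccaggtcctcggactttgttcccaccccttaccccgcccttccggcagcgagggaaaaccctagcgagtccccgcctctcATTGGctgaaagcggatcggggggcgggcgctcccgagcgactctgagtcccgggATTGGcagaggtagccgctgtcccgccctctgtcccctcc
Mvk: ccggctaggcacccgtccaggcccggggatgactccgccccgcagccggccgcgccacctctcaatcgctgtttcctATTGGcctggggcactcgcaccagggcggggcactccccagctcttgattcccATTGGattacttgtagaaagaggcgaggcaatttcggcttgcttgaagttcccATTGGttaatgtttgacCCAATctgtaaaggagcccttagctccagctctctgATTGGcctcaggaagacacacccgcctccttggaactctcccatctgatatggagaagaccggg
Lss: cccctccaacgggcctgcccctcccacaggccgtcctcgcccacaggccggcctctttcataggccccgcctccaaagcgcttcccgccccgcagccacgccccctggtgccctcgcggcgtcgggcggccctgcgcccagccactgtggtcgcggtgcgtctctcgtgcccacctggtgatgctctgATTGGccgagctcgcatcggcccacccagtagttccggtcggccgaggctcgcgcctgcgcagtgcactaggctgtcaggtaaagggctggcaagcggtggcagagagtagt
Fasn: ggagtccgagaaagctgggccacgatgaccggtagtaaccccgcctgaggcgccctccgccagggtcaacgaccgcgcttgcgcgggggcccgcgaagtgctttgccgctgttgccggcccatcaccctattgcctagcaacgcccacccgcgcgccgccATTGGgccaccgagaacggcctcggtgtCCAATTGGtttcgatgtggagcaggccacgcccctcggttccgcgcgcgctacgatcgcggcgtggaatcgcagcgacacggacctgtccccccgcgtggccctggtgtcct
Elovl6: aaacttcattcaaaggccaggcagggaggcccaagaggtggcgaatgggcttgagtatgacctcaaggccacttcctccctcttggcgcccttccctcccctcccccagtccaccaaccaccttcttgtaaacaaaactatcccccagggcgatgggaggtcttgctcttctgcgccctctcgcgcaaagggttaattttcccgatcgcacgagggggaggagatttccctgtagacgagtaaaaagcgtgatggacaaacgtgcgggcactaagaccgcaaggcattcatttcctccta
In the Fasn promoter, 2 of the 3 CCAAT matches overlap, on opposite strands. No other matches overlapped in the windows of these genes.

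The libraries held between 14705886 and 23786993 counts. The 36 genes together took 1.71% and 1.64% of the counts in the vehicle libraries, 1.64% and 1.40% at 2 h, and 0.625% and 0.705% at 12 h. Both 12 h libraries therefore lay below all the others. In bulk RNA, fewer cells of a type and less RNA per cell cannot be told apart. Skil, a known TGFβ target used here as a check of the treated against the vehicle labels, had 137 and 116 CPM in the vehicle libraries, 658 and 417 at 2 h, and 654 and 513 at 12 h. Its 2 h and 12 h libraries overlapped, so it does not check these 2 labels against each other. Of 8 epithelial markers, 5 (Cdh1, Krt8, Krt18, Krt7 and Krt19) were above 1 CPM (counts scaled by library size, as given in the processing) in every library, while Epcam, Cldn3 and Cldn7 were below 1 CPM in every library. The epithelial list summed to 5779 and 4959 CPM in the vehicle libraries, 6439 and 6474 at 2 h, and 10320 and 10367 at 12 h. At 12 h Krt8 (1.63), Krt18 (1.53) and Krt7 (1.60) were called higher and Krt19 (−1.95) lower by log2FC, and Cdh1 (−0.07) was not called. All 5 adipocyte markers (Adipoq, Plin1, Fabp4, Lep and Cidec) were below 1 CPM in every library, and their sum was between 0.103 and 0.506 CPM. Of the 4 myoepithelial or basal markers, 1 (Krt14) was above 1 CPM in every library, and the list summed to between 2.55 and 11.8 CPM. The endothelial list summed to 0.118 and 0.191 CPM with vehicle, 0.303 and 0.353 at 2 h, and 1.74 and 1.95 at 12 h, mostly Cdh5 at 12 h (39 and 36 counts, against 1 and 2 with vehicle), and the leukocyte list to at most 6.88 CPM, nearly all of it Cd68. Both hepatocyte markers, Alb and Ttr, were above 1 CPM in every library and summed to 219 and 83.0 CPM in the vehicle libraries, 215 and 73.4 at 2 h, and 57.1 and 19.5 at 12 h. Their sum was lower at 12 h and lower in replicate 2 of each group. The epithelial and endothelial sums were higher at 12 h. The part of these lists in the results was not tested.

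At 2 h, no enzyme of either branch was called in edgeR, although 2, both lower, had an unadjusted p under 0.05 and 1, Elovl6, was called lower by limma-voom and by DESeq2. All 18 genes of the sterol branch and the 11 tested genes of the fatty acid branch missed the threshold, with median log2FC of −0.15 and −0.05 against −0.01 over all genes tested. Of all genes tested, 5.25% were called lower and 9.91% higher at 2 h, and 2.01% were robustly lower and 4.23% robustly higher. The log2FC of the sterol branch ran from −0.36 (Msmo1) to 0.31 (Cyp51). In the fatty acid branch they ran from −0.75 (Elovl6) to 0.14 (Elovl1), and no other gene of that branch lay below −0.21. Elovl6 had 120.5 and 127 CPM in the vehicle libraries, 79.7 and 67.2 at 2 h, and 15.5 and 24.1 at 12 h. Its 2 h libraries lay below both vehicle libraries and above both 12 h libraries. The 2 h log2FC of −0.75 ± 0.20 had an adjusted p of 0.0516, which became 0.00907 with replicate number as a block and ranged from 0.00548 to 0.174 over 15 alternatives, 11 of which called it.

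The 2 h calls among these genes were those of the SREBP genes themselves. Srebf1 had 249 and 237 CPM in the vehicle libraries, 517 and 432 at 2 h, and 165 and 166 at 12 h. Both 2 h libraries were above, and both 12 h libraries below, the 2 vehicle libraries. Its log2FC was 0.96 ± 0.12 at 2 h (adjusted p = 0.00336, 1.95-fold higher), and the call held in all 15 alternatives. Without replicate 2 of the 2 h group the log2FC was 1.09, past the limit for robust regulation. Srebf2 had 292 and 335 CPM in the vehicle libraries, 407 and 474 at 2 h, and 247 and 275 at 12 h. Here too the 2 h libraries lay above all others, by a log2FC of 0.49 ± 0.13 (adjusted p = 0.0495). That call was lost in 8 of 15 alternatives, among them the fits without vehicle replicate 1 (0.39, adjusted p = 0.259), vehicle replicate 2 (0.59, adjusted p = 0.108), 2 h replicate 2 (0.38, adjusted p = 0.138), and either 12 h library (0.48, adjusted p = 0.104 and 0.48, adjusted p = 0.106). These 2 of the 35 tested genes stand against the 9.91% of all genes called higher. Scap, the escort of the SREBPs, had 120.5 and 133 CPM in the vehicle libraries, 156 and 185 at 2 h, and 160.4 and 174 at 12 h. All 4 treated libraries lay above both vehicle libraries. At 2 h its log2FC was 0.43 ± 0.12 (adjusted p = 0.0651, or 0.00813 with the replicate block, over a range of 0.00813 to 0.309 in 15 alternatives).

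**Figure D2:**
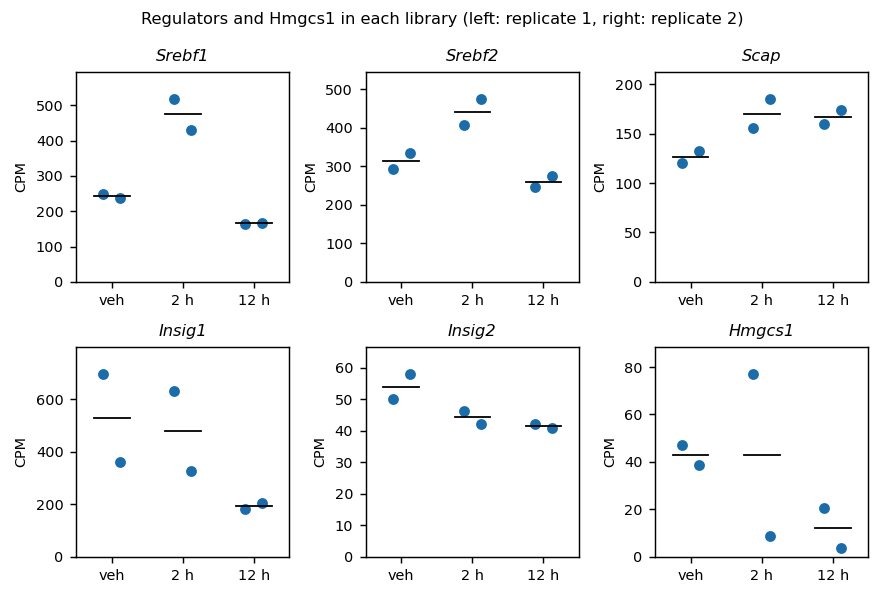
CPM (vertical axes, from 0) of Srebf1, Srebf2, Scap, Insig1, Insig2 and Hmgcs1 in the 3 groups (horizontal axes), with 1 point for each library and a bar at the mean of 2. Srebf1 and Srebf2 are highest at 2 h. The 2 points of a group lie far apart for Insig1 with vehicle and at 2 h, and for Hmgcs1 at 2 h and 12 h.

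At 12 h, the first stage of the sterol branch, from acetyl-CoA to squalene, was lower in 7 of 8 genes, all 7 robustly, with a median log2FC of −1.63 against 0.02 over all genes tested. Over all genes, 21.5% were called lower and 11.6% robustly lower at 12 h. Acat2, the cytosolic thiolase that joins 2 acetyl-CoA, had 213 and 223 CPM in the vehicle libraries, 173 and 187 at 2 h, and 42.1 and 54.1 at 12 h. Its 12 h libraries were far below the other 4, and the log2FC of −2.18 ± 0.14 was the lowest of these 8 genes. Mvk, the kinase of mevalonate, had 140.5 and 149 CPM in the vehicle libraries, 130.4 and 144 at 2 h, and 38.7 and 49.0 at 12 h. Pmvk, the next kinase, had 95.1 and 105 CPM in the vehicle libraries, 118 and 121 at 2 h, and 30.2 and 43.2 at 12 h. Mvd, which removes carbon dioxide to give isopentenyl diphosphate, had 137 and 132 CPM in the vehicle libraries, 113 and 128 at 2 h, and 37.8 and 55.6 at 12 h. In these 3 genes the 12 h libraries were the lowest and did not overlap the other groups, with log2FC of −1.73, −1.45 and −1.52. Idi1, the isomerase of isopentenyl diphosphate, had 10.9 and 17.8 CPM in the vehicle libraries, 10.9 and 12.1 at 2 h, and 4.14 and 6.00 at 12 h. The 2 vehicle libraries differed 1.62-fold, both stayed above the 12 h libraries, and the log2FC was −1.50 ± 0.29 (adjusted p = 0.0068). Without 12 h replicate 1 it was −1.27, adjusted p = 0.0579. Fdps, which makes farnesyl diphosphate, had 465 and 476 CPM in the vehicle libraries, 431 and 444 at 2 h, and 114 and 157 at 12 h. Fdft1, the squalene synthase, had 227 and 202 CPM in the vehicle libraries, 208 and 232 at 2 h, and 82.1 and 119.7 at 12 h. Both 12 h libraries were below the rest in each of these genes, with log2FC of −1.80 for Fdps and −1.09 for Fdft1. The 7 adjusted p values lay between 0.000104 and 0.0068 in edgeR's quasi-likelihood test.

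Hmgcs1, the synthase of HMG-CoA, was the gene of this stage that was not called. It was at 47.1 and 38.9 CPM in the vehicle libraries, 77.0 and 8.77 at 2 h, and 20.6 and 3.75 at 12 h. The replicates of a treated group differed more than the groups did, 8.77-fold at 2 h and 5.51-fold at 12 h in CPM, where the median gene differed by 0.22 and 0.13 on the log2(CPM + 0.25) scale. On that scale these gaps ranked 8 and 4 among the 11080 genes tested. In both treated groups replicate 2 was the lower one. The log2FC at 12 h was −1.80 ± 1.04 (adjusted p = 0.205). With the replicate block it was −2.31 (adjusted p = 0.00601), and adjusted p ranged from 0.00601 to 0.548 over 15 alternatives. Without 12 h replicate 1 the log2FC was −3.53, and without 12 h replicate 2 it was −1.07. Hmgcs1 had no entry in the mouse annotation on NCBIM37 used here for positions, so neither a position in that build nor a level per length is given. Whether its counts cover the whole gene in the build of the counts was not tested, so its CPM and log2FC are uncertain.

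From squalene to cholesterol, 8 of 10 genes were called lower at 12 h, 7 of them robustly, with a median log2FC of −1.20. Sqle, the squalene epoxidase, had 560.5 and 565 CPM in the vehicle libraries, 518 and 441 at 2 h, and 213 and 272 at 12 h. Lss, the lanosterol synthase, had 488 and 442 CPM in the vehicle libraries, 378 and 355 at 2 h, and 68.5 and 106 at 12 h. The 12 h libraries of both were the lowest, with log2FC of −1.22 for Sqle and −2.41 ± 0.21 for Lss (adjusted p = 0.000266), the largest fall of the branch. Cyp51, the demethylase of lanosterol, had 958 and 820.4 CPM in the vehicle libraries, 1240.0 and 960.0 at 2 h, and 356 and 449 at 12 h. Msmo1, the methylsterol oxidase, had 813 and 630.2 CPM in the vehicle libraries, 711 and 417 at 2 h, and 280.5 and 303 at 12 h. Nsdhl, the dehydrogenase that acts after Msmo1, had 203 and 205 CPM in the vehicle libraries, 182 and 173 at 2 h, and 76.0 and 99.7 at 12 h. All 12 h libraries of these genes lay below all vehicle libraries, with log2FC of −1.14, −1.31 and −1.22. The call of Msmo1 was lost without 12 h replicate 1 (−1.27, adjusted p = 0.0672) and without 12 h replicate 2 (−1.37, adjusted p = 0.057). Sc5d, a sterol desaturase, had 263 and 205 CPM in the vehicle libraries, 272 and 214 at 2 h, and 97.9 and 109 at 12 h. Dhcr7, a reductase at the end of the pathway, had 54.6 and 67.7 CPM in the vehicle libraries, 51.7 and 46.4 at 2 h, and 16.1 and 16.0 at 12 h. Both were lowest at 12 h with no overlap, at log2FC of −1.18 and −1.93. Tm7sf2, a sterol reductase, was called at a smaller change (−0.78 ± 0.12, adjusted p = 0.00249). Hsd17b7, a keto reductase (−0.42 ± 0.30, adjusted p = 0.297), and Ebp, a sterol isomerase (−0.42 ± 0.15, adjusted p = 0.0662), missed the threshold. Ebp was called with the replicate block (−0.43, adjusted p = 0.0106), and its adjusted p ranged from 0.0106 to 0.281 over 15 alternatives.

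In the fatty acid branch, 10 of 11 tested genes were lower at 12 h, 7 robustly. The 4 tested genes from acetyl-CoA to palmitate were all called, 2 of them robustly, with a median log2FC of −0.98. Acly, which makes acetyl-CoA from citrate (−0.73 ± 0.10, adjusted p = 0.0019), and Acaca, which makes malonyl-CoA (−0.63 ± 0.14, adjusted p = 0.0103), changed by less than the robust limit. Acaca lost its call without vehicle replicate 2 (−0.59, adjusted p = 0.0556) and without 12 h replicate 1 (−0.52, adjusted p = 0.0689). Acss2 had 32.6 and 39.9 CPM in the vehicle libraries, 26.0 and 36.7 at 2 h, and 4.83 and 8.36 at 12 h. Its 12 h libraries lay below all others, the replicates of the treated groups differed, and the log2FC was −2.46 ± 0.30 (adjusted p = 0.00098). Fasn, the fatty acid synthase, had 736 and 775 CPM in the vehicle libraries, 682 and 700.0 at 2 h, and 297 and 349.9 at 12 h. The 12 h libraries did not overlap the others and the log2FC was −1.22 ± 0.12 (adjusted p = 0.000356). Acacb, the mitochondrial form of the malonyl-CoA enzyme, had 9 and 9 counts with vehicle, 7 and 5 at 2 h and 2 and 2 at 12 h. It was below the limit of 2 CPM in 2 libraries and was not tested in the fit used here. Without a filter on low counts its 12 h difference had an adjusted p of 0.0286 in edgeR's quasi-likelihood test, from 2 counts in each 12 h library.

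Of the 7 desaturases and elongases, 6 were called lower at 12 h and 5 robustly, with a median log2FC of −1.32. Scd1, a stearoyl-CoA desaturase, had 495 and 488 CPM in the vehicle libraries, 521 and 426 at 2 h, and 122 and 116 at 12 h. Scd2, its near relative, had 6219 and 5867 CPM in the vehicle libraries, 6734 and 4729.9 at 2 h, and 2355 and 2491 at 12 h. Both were lowest in the 12 h libraries, with log2FC of −2.05 ± 0.13 for Scd1 and −1.32 ± 0.18 for Scd2, and reads that the 2 genes share would be lost to both because only uniquely aligned reads were kept. Elovl6, with the values above, fell by 2.65 on the log2 scale (adjusted p = 0.000208). Fads1, which desaturates polyunsaturated fatty acids, had 572 and 591 CPM in the vehicle libraries, 556 and 620.0 at 2 h, and 229.6 and 275 at 12 h. Fads2, which acts before it, had 295 and 342 CPM in the vehicle libraries, 329 and 364 at 2 h, and 93.6 and 117 at 12 h. Again the 12 h libraries of both lay below all others, with log2FC of −1.20 and −1.60. Elovl5, which elongates polyunsaturated fatty acids, was called at −0.51 ± 0.10 (adjusted p = 0.00572), but not without 12 h replicate 2 (−0.50, adjusted p = 0.0546). Elovl1, an elongase of very long chains, was at −0.09 ± 0.14 (adjusted p = 0.635), and was the only gene of this branch whose 12 h libraries overlapped those of vehicle.

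**Figure D3:**
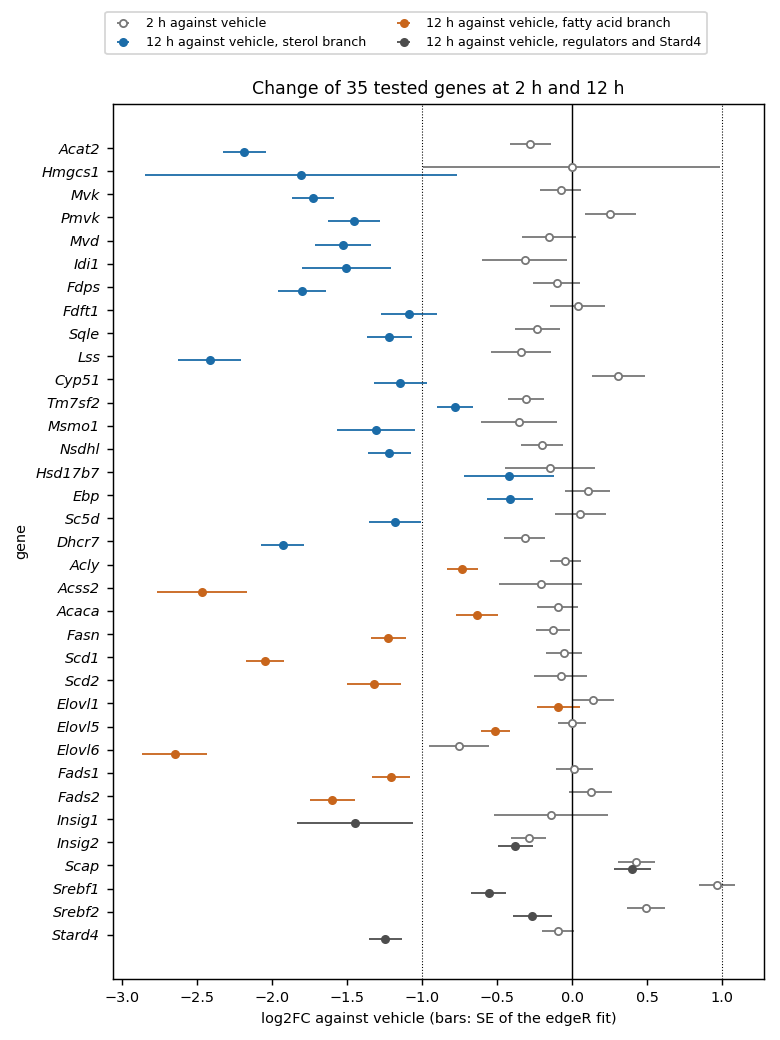
The log2FC against vehicle (horizontal axis) of the 35 tested genes (vertical axis), with open points for 2 h, filled points for 12 h colored by branch, and bars for the SE derived from the edgeR fit with 2 libraries a group. Dotted lines mark log2FC of 1 in either direction, and most 12 h points of the enzymes lie left of the line at −1 while most 2 h points lie near 0.

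The sterol sensors and transporters did not move as 1 group at 12 h. Insig1, which holds SCAP in the endoplasmic reticulum and is itself a known SREBP target, had 695 and 359 CPM in the vehicle libraries, 629 and 327 at 2 h, and 183 and 205 at 12 h. Both 12 h libraries lay below all others, but the 2 vehicle libraries differed 1.93-fold. Its log2FC was −1.44 ± 0.39 (adjusted p = 0.0232), and the call was lost without vehicle replicate 1 (−0.90, adjusted p = 0.11) and without either 12 h library (−1.38, adjusted p = 0.142 and −1.54, adjusted p = 0.114). Insig2 had 50.1 and 57.9 CPM in the vehicle libraries, 46.1 and 42.2 at 2 h, and 42.1 and 40.8 at 12 h. The 12 h libraries lay below vehicle by a log2FC of −0.38 ± 0.12 (adjusted p = 0.0387). No fit without 1 vehicle or 12 h library called it, at −0.49 and −0.28 without the vehicle libraries and −0.42 and −0.37 without those of 12 h. Nor was it called in edgeR without a filter on low counts (−0.38, adjusted p = 0.0531). Stard4, which carries sterol between membranes, had 115 and 123 CPM in the vehicle libraries, 119 and 104 at 2 h, and 49.8 and 50.8 at 12 h. It was robustly lower, with no overlap, at −1.24 ± 0.11 (adjusted p = 0.000282).

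Scap was the 1 gene of the 36 called higher at 12 h, where 21.8% of all genes were called higher. Its log2FC was 0.40 ± 0.12 (adjusted p = 0.0385). It was not called in any fit without 1 vehicle or 12 h library, at 0.32 and 0.47 without the vehicle libraries and 0.44 and 0.33 without those of 12 h, nor with scaling by total counts. Srebf1, which had risen at 2 h, was lower than vehicle at 12 h (−0.56 ± 0.12, adjusted p = 0.00937). The call was lost without vehicle replicate 1 (−0.52, adjusted p = 0.0554) and without either 12 h library (−0.56, adjusted p = 0.0697 and −0.57, adjusted p = 0.0695). Srebf2 was at −0.27 ± 0.13 (adjusted p = 0.141) and was called with the replicate block (−0.26, adjusted p = 0.0326, in a range of 0.0326 to 0.49 over 15 alternatives). None of the 35 tested genes was robustly higher at 12 h in edgeR, limma-voom or DESeq2, against 8.03% of all genes in edgeR, and Scap was also the only one higher at an unadjusted p under 0.05.

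Set side by side, the sterol and fatty acid branches both fell at 12 h, with medians near each other. Robustly lower at 12 h were 14 of 18 sterol genes and 7 of 11 tested fatty acid genes, with median log2FC of −1.38 and −1.22, and the 15 and 10 genes called lower make up most of each branch. Both libraries of 12 h were below both of vehicle in all 18 sterol genes, in 11 of 12 fatty acid genes with Acacb included, and in 37.2% of all genes tested. In the single libraries, measured from the vehicle mean, the sterol median was −1.41 and −1.20 at 12 h and the fatty acid median −1.35 and −1.11. In each 12 h library the sterol median was the lower one, by less than the 2 libraries differed from each other. The spread within groups of these medians was 0.098 (SD) for the sterol and 0.10 for the fatty acid branch. Within each branch the genes varied more than the branches did, from −2.41 to −0.42 for sterol and from −2.65 to −0.09 for fatty acid genes. No test was made between the branches, whose genes are not replicates. Without 1 library at a time, the 12 h medians ran from −1.43 to −1.25 for the sterol branch and from −1.36 to −1.12 for the fatty acid branch.

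**Figure D4:**
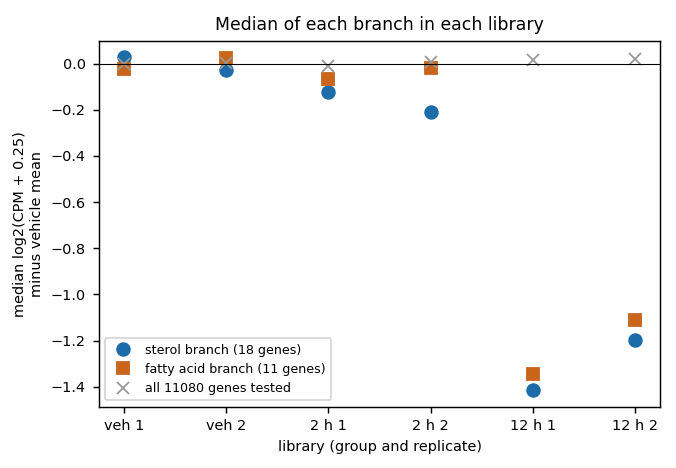
Median over the genes of a branch of log2(CPM + 0.25) minus the vehicle mean (vertical axis) in each library (horizontal axis), for the sterol branch, the tested genes of the fatty acid branch and all 11080 genes tested. Both branches lie near 0 in the vehicle and 2 h libraries and between −1.41 and −1.11 at 12 h, while all genes stay near 0.

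Most of the fall lay between 2 h and 12 h. Of the 35 tested genes, 30 were lower at 12 h than at 2 h, 22 robustly, and 0 were called higher in edgeR (0 also at an unadjusted p under 0.05 and with limma-voom or DESeq2), where 18.9% of all genes were called lower, 9.87% robustly lower, 15.2% higher and 4.5% robustly higher. None of the 35 had a log2FC above 0 in this comparison. The sterol branch had 16 genes called lower, 12 of them robustly, at a median log2FC of −1.30, and the fatty acid branch had 10, of which 7 robustly, at −1.22. Srebf1 showed the largest drop among the regulators, at −1.52 ± 0.12 (adjusted p = 0.000445), and Srebf2 fell by 0.76 on the log2 scale (adjusted p = 0.00576). Srebf2 lost its call without 12 h replicate 1 (−0.69, adjusted p = 0.0589). Scap (−0.03 ± 0.12) and Insig2 (−0.09 ± 0.12) were not called. Hmgcs1 was at −1.80 ± 1.03 (adjusted p = 0.222) and was called with the replicate block (−1.66, adjusted p = 0.0285, in a range of 0.0197 to 0.65 over 15 alternatives). This comparison shares the 12 h libraries with that against vehicle and is not separate support for it. Of the 30 calls, 22 held in all 15 alternatives, and 22 of the 30 at 12 h against vehicle did so. These were the same genes, except for Tm7sf2 (only against vehicle) and Srebf1 (only against 2 h).

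Other genes of the same pathways were listed by their known roles. Among those of sterol supply, export and control, Soat1, which esterifies cholesterol (log2FC −1.07), and Nr1h3, an oxysterol receptor (−1.37), were robustly lower at 12 h, while Nr1h2, another oxysterol receptor (0.50), and Mbtps1, a protease that cuts the SREBPs (0.38), were called higher. The call of Mbtps1 was lost with total counts and without any 1 vehicle or 12 h library (log2FC 0.25 to 0.45). Of 28 further genes of fatty acid supply, activation, storage and control, 24 were tested, 10 were lower (8 robustly) and 5 higher (1 robustly), with a median log2FC of −0.09, where 21.5% of all genes were called lower (11.6% robustly) and 21.8% higher (8.03% robustly). The 5 higher were Plin2, called in all 15 alternatives, Acsl3 in 12, Dgat1 and Fads3 in 10 each, and Hsd17b12 in 7. The 8 robustly lower were the acyl-CoA synthetases Acsl1 (−2.87) and Acsl4 (−1.94), Mid1ip1, an activator of acetyl-CoA carboxylase (−1.71), the triglyceride synthesis genes Lpin1 (−2.31) and Dgat2 (−1.65), Cpt1a, which admits fatty acids to mitochondria (−1.23), and Prkaa2 and Prkab1, subunits of AMP-activated kinase (−1.30 and −1.31). Plin2, which coats lipid droplets, went the other way, with 353 and 290.1 CPM in the vehicle libraries, 656 and 659 at 2 h, and 1252 and 1460.0 at 12 h. Its groups did not overlap, and its log2FC was 1.03 ± 0.14 at 2 h and 2.08 ± 0.14 at 12 h. Dgat2 had 52.5 and 44.9 CPM in the vehicle libraries, 92.1 and 80.6 at 2 h, and 14.9 and 16.1 at 12 h. It was higher at 2 h (0.83 ± 0.13, adjusted p = 0.00796) and lower at 12 h, though the 2 h call was lost without vehicle replicate 2 (0.71, adjusted p = 0.0612). The 10 genes Idi2, Abca1, Abcg1, Mylip, Ch25h, Cyp27a1, Elovl2, Elovl3, Elovl4 and Mlxipl were below the limit for testing.

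Levels can be compared between genes only per length, here as CPM per kb of exon, where the exon length joins all annotated transcripts of a gene and so differs from that of the transcript in use. On this scale Scd2 was the most abundant in all 3 groups, at 1108 ± 45.6 with vehicle (mean ± SD, n = 2), 1051 ± 259.8 at 2 h and 444 ± 17.6 at 12 h. Fdps came next, at 382 ± 6.79, 355 ± 7.42 and 109.7 ± 24.8. The lowest of the tested genes was Acss2, at 3.56 ± 0.506 with vehicle and 0.649 ± 0.246 at 12 h. Fads2 (211 ± 21.7), Cyp51 (207 ± 22.7) and Insig1 (199 ± 89.5) followed Fdps with vehicle, where these 3 did not differ beyond their spread, and their order was not the same at 2 h and 12 h.

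**Figure D5:**
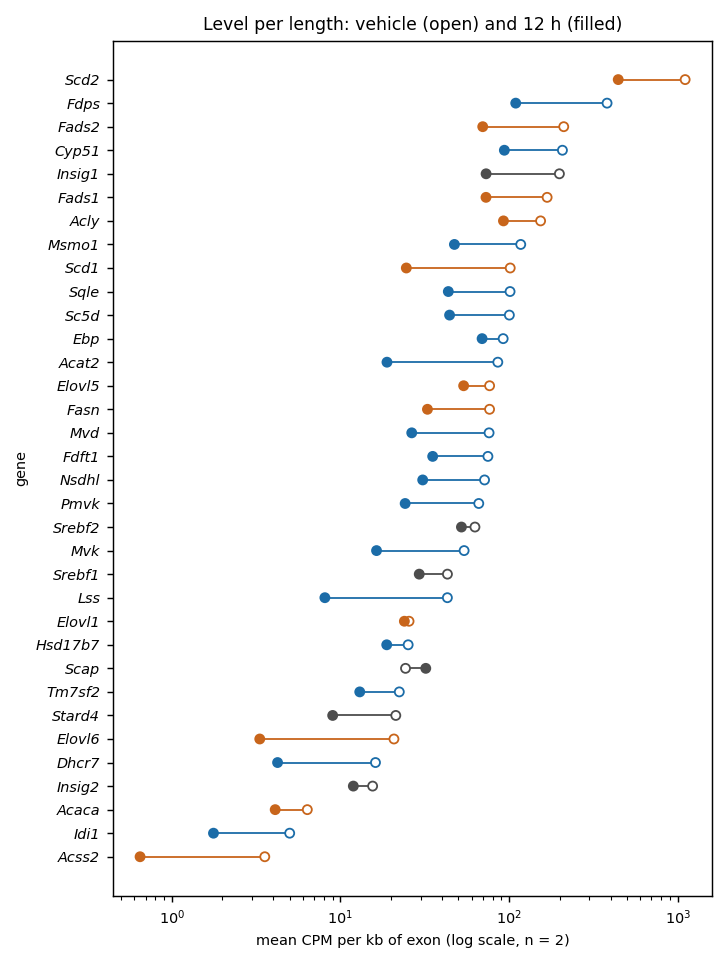
Mean CPM per kb of exon (horizontal axis, log scale, n = 2) of 34 genes (vertical axis, ordered by the vehicle level) with vehicle (open) and after 12 h of TGFβ (filled), blue for the sterol branch, orange for the fatty acid branch and gray for regulators. Scd2 is highest and Acss2 lowest, and Scap alone lies to the right of its vehicle point.

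In the genome (NCBIM37, the build of the counts, with GENCODE positions for 35 of the 36 genes) a few of these genes are neighbors. Mvk (chr5:114894278-114910600) starts 0.21 kb from Mmab, an enzyme of cobalamin use that is not one of the 36, on the other strand. Mmab had 69.0 and 73.7 CPM in the vehicle libraries, 52.4 and 55.8 at 2 h, and 19.5 and 21.8 at 12 h, and its log2FC at 12 h was −1.79 beside −1.73 for Mvk. Fads1 (chr19:10257378-10271360) and Fads2 (chr19:10138654-10175993) start 81.4 kb apart, and Fads3, their paralog, starts 60.0 kb from Fads2. Fads3 had 333 and 326 CPM in the vehicle libraries, 342 and 336 at 2 h, and 418 and 451 at 12 h. While Fads1 and Fads2 were lower at 12 h, Fads3 was called higher (0.40 ± 0.10, adjusted p = 0.0153). That call was lost with total counts (log2FC 0.27) and without any 1 vehicle or 12 h library (0.34 to 0.44). Scd1 (chr19:44468941-44482199) and Scd2 (chr19:44368166-44381354) start 114 kb apart with Scd4 between them. Scd3 and Scd4 were near the limit for testing, between 2.35 and 6.20 CPM over all libraries, and neither was called at 12 h (−0.75 and −0.10).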

How the data were processed

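RNA from 6 libraries of NMuMG cells (TruSeq Stranded total RNA, 50-base single reads) was counted per gene by the authors, who deposited raw counts. Per their methods, reads were aligned to mm9 with subjunc (unique alignments only), duplicates were removed with SAMtools 0.1.19, and reversely stranded reads over exons of UCSC genes were counted with featureCounts; the submitters' processing notes also name limma 3.34.9 and edgeR 3.20.9. Scd2 held 105721 counts over 5453 exon bases in vehicle replicate 1, more than 1 read per start position allows, so duplicate reads remain in these counts. Library totals were 14705886 to 23786993 counts, and p-values cover the spread between 2 libraries a group.

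Genes at 2 CPM or more in at least 2 libraries were kept (11080 of 21240). All 6 libraries were fitted together with edgeR 4.0.16 (R 4.3.3) with TMM factors and the quasi-likelihood test, and p-values were adjusted by Benjamini-Hochberg over all genes tested in each of 3 comparisons (2 h and 12 h against vehicle, 12 h against 2 h). CPM printed per library are counts scaled by the TMM-adjusted library size. The fit was tested on simulated data. Alternatives were limma-voom (3.58.1), DESeq2 (1.42.0), other scalings, filters and a larger prior count, only the groups compared, the replicate number as a block, regulators counted with their branch, and each library left out. Libraries with the same replicate number deviated together from their group means (correlations across genes of 0.71, 0.26 and 0.39 in the 3 pairs of groups). For the block alternative, the numbers were therefore taken to pair the libraries, which the labels do not state. The main fit held no term for the replicate number, so its standard errors and p-values leave this pairing out. Lists were described by counts and medians and not tested.

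Per-library values are given for each of the 36 genes that was robustly regulated in any comparison and for Srebf1, Srebf2, Scap, Insig1 and Insig2, and the rest of the 36 by log2FC or range. Of the other genes of the pathways, those robustly regulated at 12 h are named with their log2FC, and others named were chosen after their values were seen. The genes, lists and motifs were chosen with earlier results of these data known. Promoters came from RefSeq (GRCm38.p6) and positions from GENCODE on NCBIM37, in which Msmo1 has an older name; the 2 builds were not mixed. Proteins were not analysed here, and some genes of the list of further sterol genes are not reported here, so no count or median is given for that list.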

Additional observations from a re-analysis of the deposited data

Results flagged for a closer look

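Of the 46 genes of these pathways examined for a difference between the 2 times of treatment, 40 differed at an adjusted p under 0.05 in edgeR's quasi-likelihood test of 12 h against 2 h, and each is given by the log2FC of 12 h relative to 2 h. Of all genes, 18.9% were called lower and 15.2% higher in this comparison. The 46 were the 35 tested genes of the branches and regulators, of which 30 differed, and 11 others named because they were robustly regulated at 12 h against vehicle, of which 10 differed, so these 11 were chosen on a comparison that shares the 12 h libraries. In the first stage of the sterol branch these were Acat2 (−1.90), Mvk (−1.65), Pmvk (−1.70), Mvd (−1.37), Idi1 (−1.19), Fdps (−1.70) and Fdft1 (−1.13). In the second stage they were Sqle (−0.99), Lss (−2.07), Cyp51 (−1.45), Tm7sf2 (−0.47), Msmo1 (−0.95), Nsdhl (−1.02), Ebp (−0.52), Sc5d (−1.23) and Dhcr7 (−1.61). The fatty acid genes were Acly (−0.69), Acss2 (−2.25), Acaca (−0.54), Fasn (−1.09), Scd1 (−1.99), Scd2 (−1.24), Elovl5 (−0.51), Elovl6 (−1.89), Fads1 (−1.22) and Fads2 (−1.72), and the regulators Insig1 (−1.30), Srebf1 (−1.52), Srebf2 (−0.76) and Stard4 (−1.15). Of the other genes of the pathways they were Soat1 (−0.63), Nr1h3 (−1.44), Acsl1 (−2.16), Acsl4 (−1.28), Mid1ip1 (−0.57), Lpin1 (−1.19), Dgat2 (−2.48), Plin2 (1.04), Cpt1a (−1.39) and Prkab1 (−1.09). Plin2 alone among these 40 was higher at 12 h than at 2 h.

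Some of these calls were lost in fits without 1 library, which leave 1 sample in that group. Without 12 h replicate 1, the call was lost by Idi1 (−0.94), Tm7sf2 (−0.44), Msmo1 (−0.91), Ebp (−0.35), Acaca (−0.42), Elovl5 (−0.54), Insig1 (−1.23), Srebf2 (−0.69), Acsl4 (−1.39), Mid1ip1 (−0.57), Lpin1 (−1.07) and Soat1 (−0.63). Without 12 h replicate 2, it was lost by Idi1 (−1.48), Tm7sf2 (−0.52), Msmo1 (−1.01), Acaca (−0.68), Elovl5 (−0.49), Insig1 (−1.40), Acsl4 (−1.20), Mid1ip1 (−0.58), Lpin1 (−1.33) and Soat1 (−0.65). Without 2 h replicate 1, it was lost by Tm7sf2 (−0.38), Msmo1 (−0.51), Insig1 (−0.76) and Mid1ip1 (−0.29), and without 2 h replicate 2 by Ebp (−0.39) and Acaca (−0.42). Ebp and Mid1ip1 also lost it without either vehicle library (−0.52 and −0.52 for Ebp, −0.57 and −0.57 for Mid1ip1) and with only the groups compared.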

How the results depend on the processing

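Over 15 alternatives and 3 comparisons, the log2FC of the 46 named genes kept their direction and side of the threshold in 1914 cases, lost the call in 70, gained it in 50 and changed sign in 36, and the counts and medians of the groups stayed close in 340 and moved in 38. Scaling by total counts moved the median of all genes from −0.01 to −0.12 at 2 h and from 0.02 to −0.11 at 12 h, and the robust calls of all genes from 223 lower and 469 higher to 303 and 402 at 2 h, and from 1286 and 890 to 1485 and 741 at 12 h. The sterol and fatty acid medians then were −0.26 and −0.17 at 2 h, and −1.51 and −1.35 at 12 h, and no gene was called higher at 12 h (0 in place of 1). At 2 h the number of the 36 genes called lower was 0, and 1 with DESeq2's size factors, limma-voom, DESeq2, no filter, at least 10 counts, the replicate block or only the groups compared, and 2 with total counts. The number called higher, 2, was 1 with DESeq2's size factors, total counts or only the groups compared, and 3 with DESeq2 or the replicate block. With Stard4 and the regulators counted in their branch, the sterol median was −1.24 at 12 h and −1.19 for 12 h against 2 h. With each library left out, the genes called lower at 2 h numbered 0 to 2, higher 1 to 3 and robustly higher 0 to 1, and those called higher at 12 h 0 to 1. The sterol median ran from −1.43 to −1.25 at 12 h and from −1.45 to −1.14 for 12 h against 2 h, and the fatty acid median from −1.36 to −1.12 and from −1.29 to −1.10. The genes robustly lower at 12 h numbered 19 to 24, and 17 to 25 against 2 h. Changes of sign were all in values that were not called. At 2 h they were Hmgcs1 0.0042, Elovl5 0.00040 with no filter, Fdft1 −0.072, Ebp −0.0059, Sc5d −0.057, Fads1 −0.094, Nr1h3 −0.045 with total counts, and Elovl5 0.00037 with at least 10 counts. With libraries left out, the 2 h log2FC ran for Hmgcs1 from −2.31 to 0.84, Idi1 from −0.63 to 0.071, Fdft1 from −0.046 to 0.12, Hsd17b7 from −0.68 to 0.23, Ebp from −0.031 to 0.21, Sc5d from −0.15 to 0.25, Acss2 from −0.48 to 0.0012, Acaca from −0.22 to 0.0014, Scd1 from −0.22 to 0.083, Scd2 from −0.37 to 0.16, Elovl1 from −0.038 to 0.28, Elovl5 from −0.077 to 0.054, Fads1 from −0.065 to 0.074, Insig1 from −0.71 to 0.41, Stard4 from −0.22 to 0.0024, Nr1h3 from −0.088 to 0.24. The 12 h against 2 h values ran for Hmgcs1 from −3.53 to 0.49, Hsd17b7 from −0.65 to 0.23, Scap from −0.15 to 0.099. The causes of these changes were not tested. Besides the calls given in the text, the replicate block added Soat1, Acsl1, Acsl4 and Prkaa2 at 2 h and Prkaa2 at 12 h against 2 h, and changed no other call of the 46 genes. A fit without 1 library leaves 1 sample in that group, assumed to vary like the others. Depth limits Acacb, with at most 9 counts in a library, which was tested only without a filter.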

Other observations

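The gap between replicates was not the same in all genes of the pathways. In the vehicle and 2 h groups, replicate 2 was the lower one in Insig1 (with 359 against 695 CPM with vehicle and 327 against 629 CPM at 2 h), in Msmo1 (630.2 against 813 CPM and 417 against 711 CPM) and in Hsd17b7 (106 against 152 CPM and 81.8 against 151 CPM). At 12 h the order was the other way in these 3 genes, where Insig1 had 205 CPM in replicate 2 and 183 CPM in replicate 1. They were chosen after their values were seen, and the cause was not tested.

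At 2 h, 3 of the 24 tested further genes of the fatty acid list were called lower and 4 higher, where 5.25% of all genes were called lower and 9.91% higher. Elovl7, an elongase (0.65), Acsl3, an acyl-CoA synthetase (1.10), Dgat2 (0.83) and Plin2 (1.03) were the higher ones, and Mid1ip1 (−1.14), Mlx (−0.55) and Lpin1 (−1.12) the lower ones. Of 15 alternatives, 15 called Plin2 and Mid1ip1, 14 Dgat2 and Elovl7, 11 Acsl3, 10 Lpin1 and 9 Mlx. The call of Lpin1 was lost without vehicle replicate 1 (−0.79, adjusted p = 0.0938), 2 h replicate 2 (−0.96, adjusted p = 0.0507) or either 12 h library, and with only the groups compared. Those of Acsl3 and Mlx were lost with only the groups compared and without either 12 h library, Acsl3 also without vehicle replicate 2, and Mlx also without either vehicle library or 2 h replicate 1. That of Elovl7 was lost without vehicle replicate 1. Mid1ip1 had 164 and 166 CPM in the vehicle libraries, 87.7 and 61.7 at 2 h, and 50.3 and 50.7 at 12 h, and Lpin1 had 102 and 67.4 CPM in the vehicle libraries, 43.7 and 34.4 at 2 h, and 15.6 and 18.7 at 12 h. The groups of both did not overlap and stood in the order vehicle, 2 h, 12 h.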
